A study of Mus musculus with 12 samples.

Results

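The response to lipopolysaccharide (LPS) was measured in dendritic cells grown from the marrow of BALB/c mice, in 6 of the 12 arrays of the series. The tested arrays were the 3 of BALB/c cultures that received LPS at 1 ug/ml, with no retinoid (control+LPS), with all-trans-retinoic acid at 10 nmol (RA+LPS) and with Ro41-5253 at 100 nmol (Ro+LPS), amounts that the sample labels give per ml. They were set against the 3 BALB/c cultures without LPS, which had no retinoid (control), retinoic acid (RA) or Ro41-5253 (Ro), so that each LPS array had a partner of the same retinoid condition. Every culture came from mice of 6 to 8 weeks and was grown for 10 days with GM-CSF at 20 ng/ml, and the retinoids were present from the start of culture. The time of LPS exposure was not given separately in the sources used here. The other 6 arrays repeated the design in BL6 cultures. Each condition had 1 array in each strain. The labels do not state whether the cultures were grown from separate animals. The 3 pairs differ in retinoid condition, so p-values measure only the spread of the LPS change between retinoid conditions on these arrays. It is not a spread between replicate cultures.

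LPS is a component of the outer wall of Gram-negative bacteria. It is carried by CD14 to the receptor complex of TLR4 and MD-2 on the cell surface, and the adaptors MyD88 and TRIF pass the signal to NF-kappaB and to interferon regulatory factors. In dendritic cells this switches antigen uptake to antigen presentation, a process called maturation: co-stimulatory molecules and cytokines appear, the chemokine receptor CCR7 steers the cell to lymph nodes, and maturing cells stop dividing. RA activates retinoic acid receptors and Ro41-5253 blocks their alpha form.

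The labels were first checked on the signals. H2-Ea, the MHC class II alpha chain that C57BL/6 mice do not make, had 9989, 9724 and 10769 with LPS and 10768, 10215 and 11444 without it in the control, RA and Ro cultures of BALB/c, and 14.2 to 43.6 on 5 of the 6 BL6 arrays. The BL6 Ro array without LPS had 239, and the source of that signal was not settled, although the array entered the strain comparison. The dendritic cell integrin Itgax had 2734, 1744 and 2079 with LPS, against 6159, 3441 and 5279.7 without LPS, and H2-Ab1, an MHC class II chain, had at least 9371 on each of the 6 arrays. Markers of conventional dendritic cells of tissues were uneven. Flt3 had 4.89 to 77.1 with LPS and 5.77 to 101 without it, Zbtb46 had 65.2 to 357 with LPS and 26.2 to 501 without, and Xcr1 did not exceed 17.9 on these arrays. The lymphocyte genes Cd3e and Cd79a were near background. Cd3e had 9.37 to 23.6 with LPS and 13.3 to 35 without, and Cd79a 3.41 to 9.19 with LPS and 2.72 to 17.3 without. Other lymphocyte markers were above background, such as the immunoglobulin chain Ighm with 915, 1348 and 1627 without LPS. In such bulk cultures fewer cells of a type and less RNA per cell cannot be told apart.

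The signal distribution moved with LPS. The median signal was 22.4 to 23.3 on the 3 LPS arrays, against 34.2 to 41.7 on the 3 arrays without LPS, while the hybridisation controls lay at 2467 to 2843 with LPS and 2602 to 2788 without. The ratio of 3′ to 5′ Actb probe sets was 1.10 to 1.11 with LPS and 1.10 to 1.16 without. The median gene changed by -0.29 on the log2(signal + 16) scale, and all changes below are given relative to it, with the standard error of the model. For the 11630 genes above the median of their array on at least 2 of the 6 arrays, the median was -0.56 before that shift was taken off, against -0.29 for all genes. A typical brighter gene therefore lies below 0 on the relative scale. Signals below 41.7, the highest of the 6 array medians, are called background, and no fold is given where the mean of a group lies below it. The size of a change against background depends on the added 16.

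With limma on the 3 pairs and Benjamini-Hochberg adjustment, 831 of 18193 genes (4.57%) were higher with LPS and 4880 (26.8%) were lower, so that 14.6% of the called genes were higher. Under quantile normalization, which removes the shift of the median, 1667 (9.16%) were higher and 2044 (11.2%) were lower, and 44.9% of the called genes were higher. Both scalings called 828 genes (4.55%) higher and 2044 (11.2%) lower, and no gene had opposite calls. In either direction 31.4% of all genes were called at the deposited scaling and 15.8% under both scalings. Below, "rose" and "fell" are used for genes called under both scalings. Of these, 110 rose and 198 fell by over 8-fold. The counts at the deposited scaling fell when the control or the RA pair was left out, and rose without the Ro pair. The counts were 329 higher and 2065 lower without the control pair, 397 and 2275 without the RA pair, and 1087 and 5299 without the Ro pair. Each of these fits has fewer residual degrees of freedom, and the cause of the differences was not tested.

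**Figure D1:**
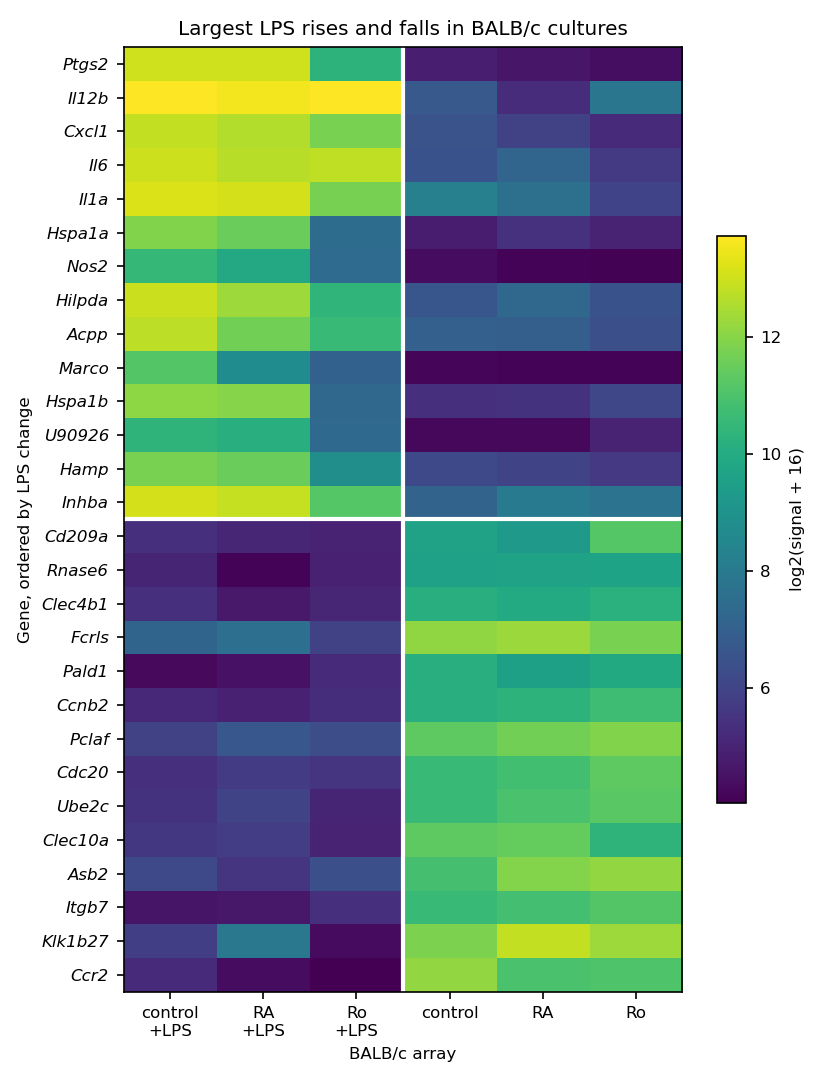
Signals on the 6 BALB/c arrays, as log2(signal + 16), for the 14 largest rises and the 14 largest falls, with LPS arrays on the left of the white line and arrays without LPS on the right. Ptgs2 is at 8348, 8285 and 1256 on the LPS arrays and at 12.9, 8.68 and 5.36 without LPS, and the Ro+LPS array is the dimmest LPS array for 12 of the 14 rises.

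Among the 14 largest rises were a cyclooxygenase, cytokines and a chemokine, together with chaperones and a lipid droplet protein. Ptgs2, the inducible cyclooxygenase that starts prostaglandin synthesis, had 8348, 8285 and 1256 in control+LPS, RA+LPS and Ro+LPS, against 12.9, 8.68 and 5.36 in control, RA and Ro. Its signals without LPS were background on every array, and the change was 7.78 ± 0.48 (limma, adjusted p = 0.00051). Ptges, the synthase that makes prostaglandin E from its product, had 2273, 2461 and 345 with LPS, against 60.7, 67.4 and 46.5 without, a rise of 4.39 ± 0.47 (adjusted p = 0.00211). Both genes rose together while other enzymes of lipid mediators fell: of 16 measured genes of this list 2 rose, 7 fell under both scalings and 1 was lower at the deposited scaling only (8 lower, or 5 without the RA pair). Alox5, which starts leukotriene synthesis, had 36.7, 52.5 and 229.5 with LPS and 1161, 2507 and 2189.8 without, a fall of 16-fold (-4.0 ± 0.37, adjusted p = 0.000987). Alox15, another lipoxygenase, had 2.91, 3.34 and 39.6 with LPS, against 343, 668 and 1324 without LPS (-4.37 ± 0.26, adjusted p = 0.000396). Tbxas1, the thromboxane synthase, fell by 2.52 ± 0.26 on the log2 scale.

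Cytokines made up the second group. Of 25 measured cytokine genes 15 rose and 1 fell under both scalings, and Csf2 was higher at the deposited scaling only. The median change of the list was 2.23, against 0 for the median gene by construction, and 18 of the 25 had signals on the 3 LPS arrays above all 3 without LPS, as had 1135 of all 18193 genes (6.24%). Il12b, a subunit of the interleukins that steer T helper cells, had 13563, 12094 and 13439.8 with LPS and 92.4, 22.5 and 214 without, a rise of 161-fold (7.33 ± 0.42, adjusted p = 0.000439). Il6, a cytokine of fever and acute inflammation, had 8041, 6521 and 7061 with LPS, against 72.8, 131 and 36.1 without it, a rise of 99.7-fold (6.64 ± 0.31, adjusted p = 0.000394). For both genes the LPS arrays lay within a narrow band in the 3 retinoid conditions. The Il12b signals were not far below the highest of those arrays, 15459.5, 15393 and 16266 with controls left aside. Whether that narrowed the band was not tested. Il1a, an alarm cytokine, had 9594, 8742 and 3403 with LPS and 295, 179 and 48.2 without (5.68 ± 0.20, adjusted p = 0.000387). Inhba, which encodes the activin A subunit, had 8759, 7418 and 2313 with LPS and 123, 248 and 199 without (5.03 ± 0.43, adjusted p = 0.00115). Il23a, the partner subunit of Il12b, reached only 41.7, 98.3 and 64.4 with LPS and lay at background without it (2.23 ± 0.32, adjusted p = 0.0064). Tgfb1, a suppressive cytokine, was the member that fell (-0.96 ± 0.17, adjusted p = 0.00381).

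Tnf, the classic early product of LPS signalling, did not pass the threshold. It had 623, 755 and 449 with LPS and 199, 308 and 625 without, with the Ro culture without LPS above its LPS partner (1.07 ± 0.39, adjusted p = 0.192). Il10, an inhibitory cytokine, had 28.5, 42.0 and 55.6 with LPS, against 24.1, 8.31 and 5.85 without (adjusted p = 0.0754). Ifnb1, the type I interferon, had 59.9, 49.7 and 27.3 with LPS and 18.8, 16.7 and 18.1 without (adjusted p = 0.08). The last 2 genes had groups that did not overlap, and both passed the threshold under quantile normalization.

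Promoters are shown for a few of these genes, because a search for short motifs marks the letters that the regulators of this response are known to bind. Sequences are the 250 bases before the RefSeq start on GRCm38.p6, read 5′ to 3′ along the gene, with matches in capitals, and a match says only that those letters occur there. The NF-kappaB type motif GGGANTTTC was searched on both strands, and 0.977% of 27025 promoters hold it. Of 18 measured cytokine genes for which a promoter was given, 2 held it, Il6 and Csf1. The Il6 match reads along the gene and begins 44 bases before the start.
Il6, chr5:30012864-30013113, plus strand: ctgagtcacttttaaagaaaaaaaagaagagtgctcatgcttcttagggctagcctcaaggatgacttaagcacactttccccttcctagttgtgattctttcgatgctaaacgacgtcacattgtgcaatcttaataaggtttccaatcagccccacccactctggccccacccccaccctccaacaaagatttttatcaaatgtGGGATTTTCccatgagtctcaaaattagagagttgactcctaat

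**Figure D2:**
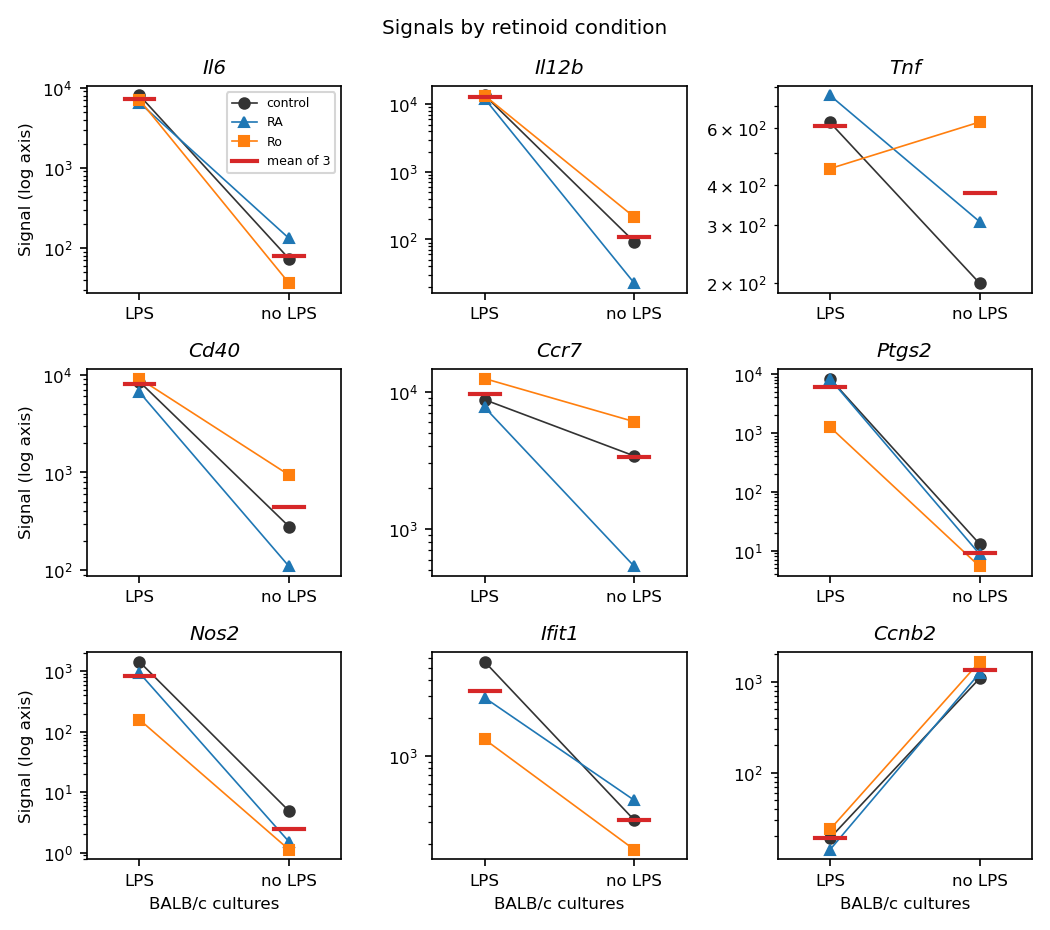
Signals of 9 genes on the 6 BALB/c arrays (log axis), LPS on the left and no LPS on the right of each panel, joined by retinoid condition, with red bars for the mean of 3 arrays. The 3 lines run the same way for 8 of the genes, and the Ro line of Tnf runs the other way, with 449 with LPS and 625 without.

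Chemokine genes followed the cytokines. Of 22 measured, 12 rose under both scalings, Ccl5 was higher and Ccl24 lower at the deposited scaling only, and the median change was 1.79. The number higher was 13 at the deposited scaling and 8 without the control pair. Cxcl1, a ligand that draws in neutrophils, had 7288, 6239.8 and 3503 with LPS, against 75.1, 46.5 and 21.9 without, a rise of 111-fold (6.79 ± 0.17, adjusted p = 0.000272). Its relatives Cxcl2 (4.49 ± 0.22) and Cxcl3 (3.89 ± 0.20) rose as well. Cxcl9, a ligand that draws in T cells, spread widely, with 1218, 227 and 83.7 with LPS and 18.1, 2.80 and 34.0 without (adjusted p = 0.0172, but 0.0773 without the control pair and 0.0942 without the RA pair). Among 15 receptors 3 rose and 5 fell, and the 3 became 1 without the control pair. Ccr7 had 8711, 7658 and 12413 with LPS, against 3397, 534 and 6034 without LPS, a rise of 5.1-fold (2.35 ± 0.50, adjusted p = 0.0257, but 0.0572 without the control pair). Ccr2, the receptor by which monocytes leave the marrow, had 22, 4.57 and 0.538 with LPS and 4572, 1946 and 2106 without. The change was -6.55 ± 0.20 (adjusted p = 0.000272), with every LPS array at background, so that its size was -8.33 with an added value of 1 and -5.09 with 64. Ccrl2, an atypical chemerin receptor, rose 21.7-fold.

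Of 22 measured maturation genes 13 rose, 2 were lower at the deposited scaling only (Icosl and Tnfrsf4), and the median change was 1.84. Cd40, the co-stimulatory receptor for T cell help, had 8499, 6617 and 9138 with LPS, against 279, 109 and 940.5 without, a rise of 29.8-fold (4.90 ± 0.43, adjusted p = 0.00117). Cd86, a ligand of the T cell receptor CD28, had 5945, 3054 and 11257 with LPS and 936, 487 and 2849 without (2.70 ± 0.19, adjusted p = 0.000802). Within both groups the Ro array was the highest and the RA array the lowest. Slamf1, a receptor shared with T cells, rose 31.2-fold, and Cd200, an inhibitory surface ligand, 17.7-fold. The MHC class II list did not follow: of 15 genes 0 rose by limma (0 at an unadjusted p under 0.05), and 2 fell. Those 2 stand against 11.2% of all genes. At the deposited scaling 3 of 15 were lower, against 26.8%. H2-DMa, which helps load peptides, had 1771, 1449 and 1944 with LPS and 5585, 6266 and 7490.2 without (-1.61 ± 0.17, adjusted p = 0.00102), and H2-DMb2 fell by 1.41 ± 0.16 on the log2 scale. Ciita, the master activator of class II genes, was lower at the deposited scaling only (-1.07 ± 0.27).

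Genes that sense and pass on LPS were called in both directions, but lower no more often than all genes. Of 17 measured, 7 rose and 1 fell under both scalings, and 3 more were lower at the deposited scaling only. At the deposited scaling 4 of 17 were lower, against 26.8% of all genes, and 7 were higher, against 4.57%. When the control pair was left out 2 were higher and 1 lower, and without the RA pair 2 were higher and 0 lower (limma, 5 lower at an unadjusted p under 0.05). Cd14 had 14504, 13129 and 8145 with LPS, against 5025, 4849.8 and 3706 without, a rise of 3.14-fold (1.65 ± 0.16, adjusted p = 0.00231). Ly96, which encodes MD-2, rose 3.47-fold (1.79 ± 0.20). Tlr4 itself had 338, 269 and 125 with LPS and 709, 547 and 322 without (-0.81 ± 0.18, adjusted p = 0.00716), and it was not called under quantile normalization. Myd88, the adaptor, changed by -0.97 ± 0.23 (adjusted p = 0.00931), and Irak3, an inhibitory kinase of the pathway, rose 2.83-fold.

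NF-kappaB genes rose in 10 of 17 cases, with a median change of 1.63, and Cyld was lower at the deposited scaling only. Members that restrain the pathway were among the largest. Tnfaip3, which encodes the inhibitor A20, had 4220.5, 3734 and 3453 with LPS and 689.9, 268 and 795 without (3.09 ± 0.31, adjusted p = 0.00183). Nfkbiz, an inducible nuclear partner of NF-kappaB, had 1317, 1523 and 1663 with LPS, against 228, 195 and 267 without LPS (2.91 ± 0.18, adjusted p = 0.000572). The groups did not overlap for either gene, nor for Nfkbib, an inhibitor subunit that rose 5.62-fold. Traf1, an adaptor of tumour necrosis factor receptors, rose 10.9-fold. Of 14 members for which a promoter was given, 2 held the motif, Nfkbia and Cyld, and neither was called under both scalings.

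**Figure D3:**
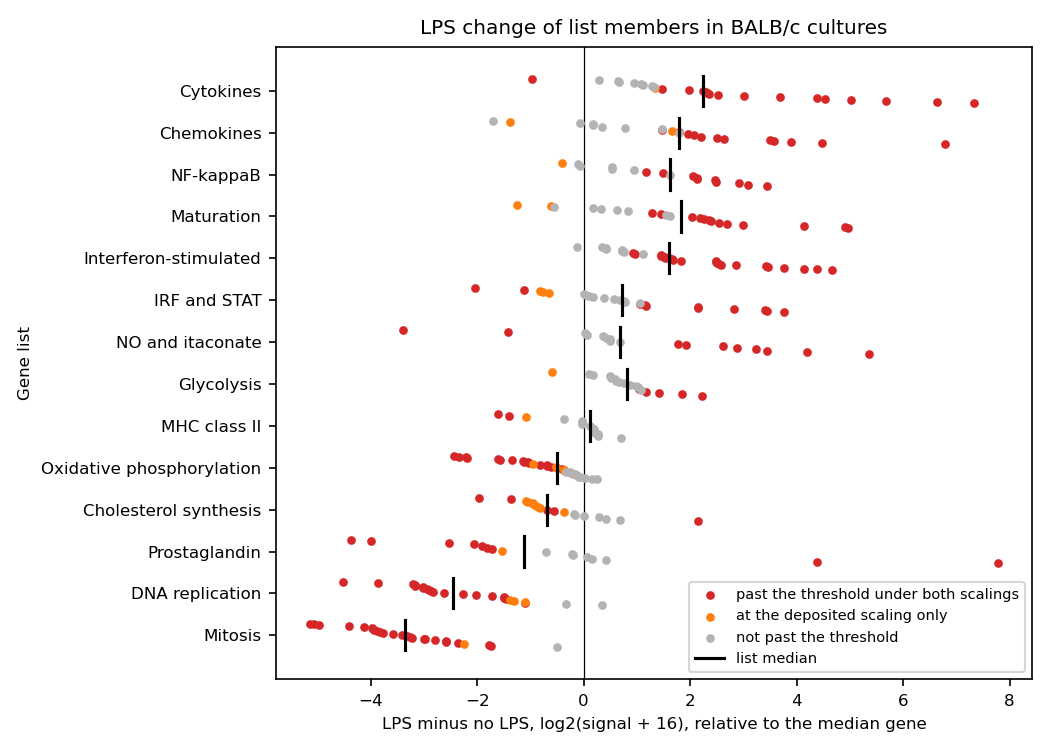
Change of each measured member of 14 gene lists in the BALB/c cultures, LPS minus no LPS on the log2(signal + 16) scale relative to the median gene, with red points for genes called under both scalings, orange for those called at the deposited scaling only, grey for the others and a black bar for the list median. List medians run from 2.23 for cytokines to -3.36 for mitosis genes.

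Interferon-stimulated genes rose in 22 of 31 cases, with a median change of 1.60, and limma called 0 lower (0 at an unadjusted p under 0.05). Rsad2, an antiviral enzyme, had 13945, 11741 and 8793 with LPS, against 622, 1167 and 199.8 without, a rise of 25.2-fold (4.66 ± 0.36, adjusted p = 0.000863). Oasl1, a regulator of the interferon response, had 7264, 5741 and 5126 with LPS and 361, 423 and 247 without (4.38 ± 0.19, adjusted p = 0.000394). Isg20, a ribonuclease, had 5387, 3612 and 884 with LPS and 118, 245 and 355 without (3.76 ± 0.67, adjusted p = 0.0115), so its change in the Ro pair, 1.60, was below that in the control pair, 5.67. Of the 24 regulators of the family, 9 rose and 2 fell under both scalings, and 3 were lower at the deposited scaling only (5 lower in all, or 2 without the control pair or the RA pair). The 5 lower stand against 26.8% of all genes. Irf7, the regulator that amplifies type I interferon, rose 13.6-fold (3.76 ± 0.18), and Socs3, a feedback inhibitor of cytokine receptors, 10.7-fold. Ifngr1, a chain of the interferon gamma receptor, had 149, 232 and 169 with LPS and 1165, 1128 and 686 without, a fall of 4.11-fold (-2.04 ± 0.23).

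The motif GAAANNGAA, a core of the interferon response element, occurred in the promoters of 11 of 23 interferon-stimulated genes (47.8%), against 7.16% of all 27025 promoters. Both printed promoters hold it on the opposite strand, so the capitals read TTCNNTTTC. Rsad2 has 1 match, and Ifit1, whose product binds viral RNA and which rose by 3.47 ± 0.30, has 3 that overlap in part.
Rsad2, chr12:26456453-26456702, minus strand: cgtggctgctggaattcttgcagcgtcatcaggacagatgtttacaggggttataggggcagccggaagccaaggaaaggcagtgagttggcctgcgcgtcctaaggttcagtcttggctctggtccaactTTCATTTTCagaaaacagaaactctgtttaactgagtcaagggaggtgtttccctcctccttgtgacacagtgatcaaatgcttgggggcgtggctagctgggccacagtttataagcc
Ifit1, chr19:34640639-34640888, plus strand: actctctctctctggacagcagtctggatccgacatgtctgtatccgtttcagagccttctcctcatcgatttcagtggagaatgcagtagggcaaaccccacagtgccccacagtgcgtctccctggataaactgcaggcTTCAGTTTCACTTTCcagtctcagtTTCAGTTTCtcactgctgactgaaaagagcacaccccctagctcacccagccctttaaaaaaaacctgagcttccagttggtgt

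Genes of antimicrobial metabolism and iron handling also changed. Of 17 genes of nitric oxide, itaconate and tryptophan metabolism 8 rose and 2 fell. Nos2, the inducible nitric oxide synthase, had 1439, 942 and 159 with LPS, against 4.88, 1.51 and 1.12 without (5.37 ± 0.53, adjusted p = 0.0016). Acod1, which makes itaconate, rose 18.3-fold (4.19 ± 0.19), and Hmox1, which breaks down heme, 9.49-fold. Kmo and Kynu, enzymes that break down kynurenine, fell by 3.39 ± 0.20 and 1.43 ± 0.24 on the log2 scale. Hamp, the iron hormone hepcidin, had 3469, 2917 and 443 with LPS, against 56.9, 50.1 and 33.8 without LPS, a rise of 32.8-fold (5.04 ± 0.46, adjusted p = 0.00133). Hilpda, a lipid droplet protein, rose 40.8-fold.

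Slc2a1, the main glucose transporter, had 8666, 7319.9 and 1671 with LPS and 1228, 1316 and 1159.9 without (2.21 ± 0.42, adjusted p = 0.0173). Of 18 glycolysis genes 5 rose (limma), with Tpi1 (1.42 ± 0.18) and Pfkfb3 (1.85 ± 0.36) among them, and 1 was lower at the deposited scaling only. The 5 became 2 without the RA pair and 0 without the control pair, when 4 had an unadjusted p under 0.05. Genes of mitochondrial respiration and the citrate cycle went down: of 34, 17 fell under both scalings and 6 more were lower at the deposited scaling only. Of all genes 11.2% fell and 26.8% were lower at the deposited scaling. The list median was -0.51, on a scale where the typical brighter gene also lies below 0. The 23 lower became 12 without the control pair and 13 without the RA pair. Idh3a, a citrate cycle dehydrogenase, had 139.7, 190.2 and 336 with LPS, against 1256, 1569 and 1606 without (-2.44 ± 0.22, adjusted p = 0.000839), and Idh2, Idh1 and Fh1 fell by 2.33 ± 0.18, 2.21 ± 0.19 and 2.19 ± 0.22 on the log2 scale. Cholesterol synthesis was less settled, since 12 of 19 genes were lower at the deposited scaling, 4 under both scalings and 5 without the control pair or the RA pair. Dhcr7, the last enzyme of the pathway, fell by 1.97 ± 0.26 on the log2 scale, while Pmvk, an early one, rose 4.41-fold.

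Genes of cell division fell in all 3 retinoid conditions, and the mitosis list had the lowest median of the 35 lists. Of 26 measured mitosis genes 24 fell under both scalings, 1 was lower at the deposited scaling only (Mki67), and Cenpa did not pass the threshold. The median change was -3.36, and the summed signal of the list was 2784 to 3582 on the LPS arrays, against 22094 to 32580.1 without LPS. Ccnb2, a cyclin that drives entry into mitosis, had 19.2, 14.3 and 23.9 with LPS and 1092, 1250.2 and 1661 without (-4.97 ± 0.21, adjusted p = 0.000394). Cdc20, which activates the complex that ends metaphase, had 25.7, 36.5 and 30.9 with LPS, against 1529, 1755 and 2528 without (-5.06 ± 0.22, adjusted p = 0.000394). On the LPS arrays both genes were at background in all 3 retinoid conditions. Ube2c, the ubiquitin conjugating enzyme of the same complex, had 28.3, 49.7 and 16.8 with LPS and 1553, 1946 and 2406 without (-5.13 ± 0.29, adjusted p = 0.000396). Of 24 replication genes 19 fell under both scalings and 3 more were lower at the deposited scaling only, with a median of -2.45. Rrm2, a subunit of the enzyme that makes deoxynucleotides, had 54.0, 60.3 and 30.5 with LPS and 1498, 1792 and 1967 without, a fall of 22.9-fold (-4.52 ± 0.25, adjusted p = 0.000396). Mcm5 and Mcm3, subunits of the replicative helicase, fell 14.6-fold and 8.98-fold. Leaving out a retinoid pair left 25 or 26 mitosis genes lower and 18 to 22 replication genes.

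The motif TTTGAA, a core of the element bound by the repressor complex that silences cell cycle genes in resting cells, occurred in 7 of 22 promoters of mitosis genes (31.8%), against 16.3% of all promoters. Cdc20 holds it along the gene, 18 bases before the start, and Ube2c on the opposite strand (TTCAAA), where it begins 29 bases before the start.
Ube2c, chr2:164769679-164769928, plus strand: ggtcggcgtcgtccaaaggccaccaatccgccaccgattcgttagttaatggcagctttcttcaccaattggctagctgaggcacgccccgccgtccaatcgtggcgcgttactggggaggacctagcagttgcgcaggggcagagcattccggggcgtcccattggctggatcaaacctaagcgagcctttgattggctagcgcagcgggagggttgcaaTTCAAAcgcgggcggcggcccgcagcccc
Cdc20, chr4:118437344-118437593, minus strand: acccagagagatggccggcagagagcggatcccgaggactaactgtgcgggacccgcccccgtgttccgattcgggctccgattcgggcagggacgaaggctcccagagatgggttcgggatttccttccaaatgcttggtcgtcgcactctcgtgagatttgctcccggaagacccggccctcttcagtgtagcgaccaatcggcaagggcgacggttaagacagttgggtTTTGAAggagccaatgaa

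Receptors of antigen uptake moved in both directions. Of 21 lectins and scavenger receptors 7 fell, 1 was lower at the deposited scaling only and 5 rose, and the 5 became 3 without the control pair or the RA pair. Clec10a, a galactose lectin of dendritic cells, had 32.8, 39.9 and 16.2 with LPS, against 2550.2, 2794 and 1288 without (-5.28 ± 0.19, adjusted p = 0.000386). Mgl2, its close relative, had 402, 322 and 143 with LPS and 7527, 8413 and 7370 without, a fall of 22.6-fold. RNA of such similar genes may hybridise to the probe sets of both. Cd209a, the mouse relative of DC-SIGN, fell by 4.57 ± 0.42 on the log2 scale. In contrast Clec4e, a receptor for mycobacterial glycolipid, rose 16.4-fold, and Marco, a scavenger receptor for bacteria, had 2238, 414 and 116 with LPS, against 2.63, 1.69 and 1.44 without (5.10 ± 0.68, adjusted p = 0.00408). Of 16 Fc receptor and complement genes 7 fell and 1 rose. Cfb, a complement factor, rose 26.4-fold, and Fcgrt, the neonatal Fc receptor, had 263, 292 and 364 with LPS and 3204, 3153 and 4064 without (-3.15 ± 0.16, adjusted p = 0.000394).

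Chaperones and degradation enzymes moved unevenly. Of 15 heat shock genes 4 rose, 1 fell and 2 were lower at the deposited scaling only, and the 4 became 1 without the control pair or the RA pair. Dnajb4, a co-chaperone, rose 3.02-fold, and Hspd1, the mitochondrial chaperonin, had 1027, 1568 and 1584 with LPS and 2769, 3667 and 3666 without (-0.99 ± 0.16, adjusted p = 0.00251). Of 22 lysosomal genes 2 rose and 5 fell, and 1 was lower at the deposited scaling only, and the 6 lower became 3 without the control pair. At the deposited scaling 6 of 22 lysosomal and 3 of 15 heat shock genes were lower, against 26.8% of all genes. These shares were near or below that of all genes. Higher were 2 and 4, against 4.57% of all genes. Gusb, a lysosomal glucuronidase, had 512, 809.7 and 371 with LPS, against 3704, 3939 and 3765 without, a fall of 5.67-fold (-2.50 ± 0.22, adjusted p = 0.000835). Gla, another lysosomal hydrolase, rose 3.69-fold.

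Other innate receptors and class I genes were called about as often as all genes, with 5 of 17 and 4 of 15 at the deposited scaling, against 31.4%. Of 17 Toll-like and NOD-like receptor genes 1 rose, 3 fell and Tlr4 was lower at the deposited scaling only. Pycard, the adaptor of inflammasomes, had 1087, 1400.5 and 782 with LPS, against 5037, 6973 and 4250 without (-2.02 ± 0.15, adjusted p = 0.000558), and Tlr13, which senses bacterial ribosomal RNA, fell 4.26-fold. Tlr1, a partner of the lipoprotein receptor Tlr2, was the member that rose, by 2.87-fold. Of 15 MHC class I genes 2 rose (1 without the RA pair). Without the control pair limma called 0 higher, and 2 had an unadjusted p under 0.05. The risers were Tap1, which carries peptides into the endoplasmic reticulum, at 2.86-fold, and Psmb9, an immunoproteasome subunit, at 2.13-fold. Canx and Pdia3, chaperones of class I assembly, were lower at the deposited scaling only, and their relative changes of -0.32 and -0.25 turned positive under another scaling (0.02 and 0.09 with arrays scaled to 1 median).

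Other large falls lay outside the lists. Itgb7, the integrin chain that pairs for homing to the gut, had 7.91, 9.80 and 25.7 with LPS, against 1555, 1800.2 and 2247 without LPS (-5.69 ± 0.20, adjusted p = 0.000386). Klk1b27, a kallikrein, had 40.9, 227 and 4.22 with LPS and 3585, 7317 and 5017 without, a fall of 64-fold (-6.00 ± 0.52, adjusted p = 0.000879), and it belongs to a family of near-identical genes whose signals may be shared. Asb2, a ubiquitin ligase subunit, fell 40.8-fold, and Pclaf, a replication clamp partner, 32.7-fold. Among large rises outside the lists were Acpp, an acid phosphatase, at 35.8-fold, and U90926 (5.04 ± 0.70).

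The share of retinoid genes called was near that of all genes, with 8 of 24 called at the deposited scaling (31.4% of all genes) and 4 under both scalings (15.8% of all genes). Of the 24, 2 rose and 2 fell under both scalings, 4 were lower at the deposited scaling only, and 7 were at background on all 6 arrays. Without the control pair 0 were higher by limma (2 at an unadjusted p under 0.05) and 2 lower, and without the RA pair 1 was higher and 2 lower. Aldh1a2, which makes retinoic acid in dendritic cells, had 3207, 3281 and 1654 with LPS, against 1606, 1291 and 1011 without, a rise of 2.45-fold (1.30 ± 0.18, adjusted p = 0.00916, but 0.0716 without the control pair and 0.0626 without the RA pair). Rara, which encodes the receptor that Ro41-5253 blocks, had 70.3, 27.8 and 69.6 with LPS and 170.1, 195 and 282 without (-1.44 ± 0.29, adjusted p = 0.00693) and was not called under quantile normalization. Dhrs3, a reductase that removes retinaldehyde, fell by 1.60 ± 0.20 on the log2 scale.

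Markers of other cells in such cultures moved with LPS. Granulocyte markers fell in 8 of 16 cases, 2 more were lower at the deposited scaling only and Lcn2 rose. Their summed signal was 4077 to 18273 with LPS and 12506 to 70296 without. S100a9, a calcium binding protein of neutrophils and monocytes, had 344, 1479.9 and 57.2 with LPS, against 5293, 14816 and 3501 without (-3.97 ± 0.41, adjusted p = 0.00126). Ngp, a neutrophil granule protein, fell 15.4-fold (-3.94 ± 0.20). Of 20 macrophage markers 6 fell and 2 rose, and their summed signal was 26815 to 94473 with LPS and 58685 to 119278 without. Mrc1, the mannose receptor, had 108, 140.5 and 10.7 with LPS and 3496, 3328 and 338 without (-4.04 ± 0.25, adjusted p = 0.000429). These lists moved beside the falls of the uptake and complement genes, and their part in those falls was not tested. Of 19 markers of conventional dendritic cells 4 rose (among them Irf8, a lineage factor, at 4.44-fold) and 6 fell, with a summed signal of 30144 to 48113 with LPS and 34139 to 48845 without. At the deposited scaling 8 were lower, against 3 without the control pair and 5 without the RA pair. Of the lymphocyte lists 5 of 11 T cell, 5 of 11 B cell and 6 of 9 NK cell markers were at background on all 6 arrays. Il7r, Blnk and Klrk1, which myeloid cells can also express, rose 3.21-fold, 5.31-fold and 2.99-fold. Of 11 mast cell and basophil markers 1 rose, 2 were lower at the deposited scaling only and 7 were at background on all 6 arrays, with a median change of -0.10. The 2 lower stand against 26.8% of all genes. Hdc, which makes histamine, had 1559.8, 884 and 579.8 with LPS and 36.6, 46.4 and 108 without (3.96 ± 0.46, adjusted p = 0.00281). The lower members were Gata2, a transcription factor (-0.91 ± 0.30), and Cpa3, a mast cell protease at or near background (-0.62 ± 0.27). Of 6 measured eosinophil markers 1 fell, 0 rose and 4 were at background on all 6 arrays, with a median change of -0.12. The member that fell was Siglecf, an eosinophil receptor, with 21.7, 46.0 and 6.97 with LPS, against 726, 1391 and 228 without LPS (-3.78 ± 0.28, adjusted p = 0.000574). Ighm, an immunoglobulin chain, had 48.7, 32.4 and 60.1 with LPS, against 915, 1348 and 1627 without (-4.08 ± 0.24).

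The 3 retinoid pairs gave similar but not equal responses. Across 11630 genes above the median of their array on at least 2 of the 6 arrays, the changes of the control and RA pairs correlated with r = 0.876, those of control and Ro with 0.761 and those of RA and Ro with 0.728, as a description across genes, which are not independent. Of the 828 genes that rose, 418 (50.5%) had their lowest LPS signal on the Ro+LPS array, 333 (40.2%) on RA+LPS and 77 (9.3%) on control+LPS, against 33.1%, 38.1% and 28.8% of the 11630 genes. The Hsp70 genes, which encode inducible chaperones, were among them. Hspa1b had 4337, 3947 and 142 with LPS and 25.5, 28.4 and 52.5 without, and Hspa1a had 3775, 2910.1 and 162 with LPS, against 11.9, 27.6 and 15.6 without. Their changes in the Ro pair were 1.53 and 2.81, and in the control pair 7.05 and 7.42. Each pair is 1 array against 1, so differences between pairs have no test.

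**Figure D4:**
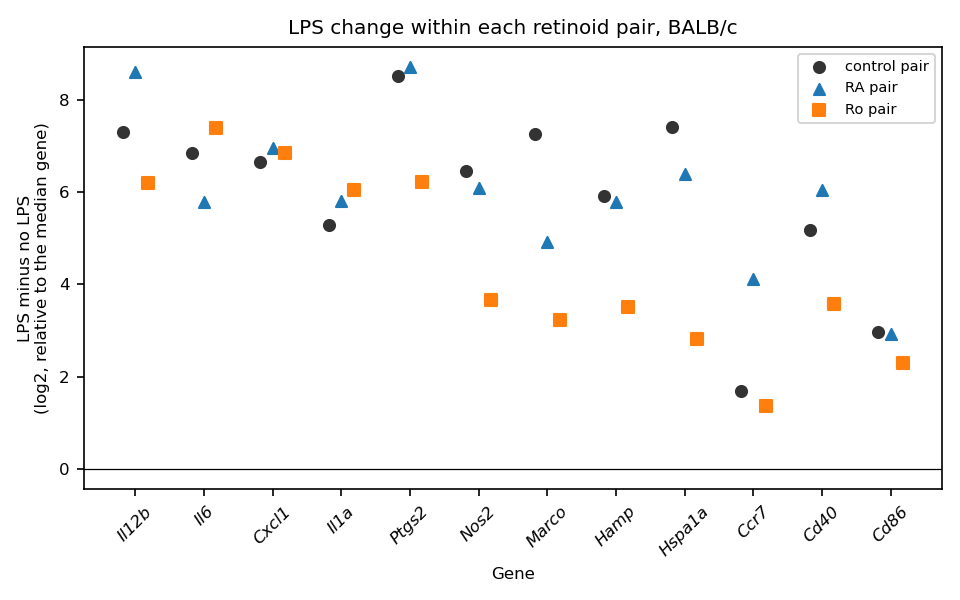
LPS change within each retinoid pair (log2, relative to the median gene of that pair) for 12 genes in BALB/c cultures, with a circle for the control, a triangle for the RA and a square for the Ro pair. The Ro pair is the lowest for Hspa1a at 2.81 and the highest for Il6 at 7.40.

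Some genes moved in opposite directions between the pairs, and they were chosen for that range, so the values are a description. Apoc2, an activator of lipoprotein lipase, had 861, 916 and 5545 with LPS, against 1960.2, 4346 and 195 without. Plpp1, a lipid phosphatase, had 439, 275 and 111 with LPS and 82.4, 12.3 and 1293 without. In both cases the control and RA pairs ran one way and the Ro pair the other. Pdgfc, a growth factor, had 36.8, 47.3 and 314 with LPS and 348, 882 and 69.2 without. Cd207, the Langerhans cell lectin langerin, was above background on 1 of the 6 arrays, with 1649 in Ro and 29.0 in Ro+LPS. Among the 11630 genes, 14 had a change of over 2-fold in the Ro pair opposite to over 2-fold changes in the other pairs, 4 did so in the RA pair and 0 in the control pair.

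The last question was whether BALB/c cultures answered LPS differently from BL6 cultures. Both strains were fitted in 1 limma model of the 12 arrays. Strain and replicate number coincide in the labels, so strain and any batch tied to that number cannot be told apart. Across the 11630 genes the changes of BALB/c and BL6 correlated with r = 0.886, as a description. Of the 828 genes that rose in BALB/c 811 changed in the same direction in BL6 and 511 were called there, and of the 2044 that fell 2031 and 1652. Calls in BL6 were made at the deposited scaling only, where 809 of all 18193 genes were higher and 2734 lower. The test of the difference itself called 3 of 18193 genes (0.0165%), and 1676 had an unadjusted p under 0.05.

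Differences between the strains are given relative to the median difference of all genes (-0.19), so they are not the exact subtraction of the relative changes. Cxcl1 rose in both strains. Its signals in BL6 were 265, 197 and 192 with LPS and 6.39, 8.50 and 8.54 without, so that the change of 6.79 in BALB/c stood against 3.41 in BL6 (difference 3.41, adjusted p = 0.039). The BL6 signals without LPS all lay below 26.5, the lowest median of those arrays, so the added 16 sets the size of the BL6 change. With an added value of 1 the difference was 2.61 and did not pass (adjusted p = 0.187). Cxcl3, a neighbour in the chemokine family, ran the other way without passing the threshold, at 3.89 in BALB/c and 5.98 in BL6 (adjusted p = 0.0626). Itgb7 fell in both strains and further in BALB/c, with 48.1, 43.0 and 60.1 in BL6 with LPS, against 660.3, 393 and 696 without (difference -2.65, adjusted p = 0.039). Treml2, a receptor of the TREM family, had 113, 86.3 and 44.7 with LPS and 973, 1075 and 647 without in BALB/c. In BL6 it had 151, 363 and 124 with LPS and 265, 432 and 219 without (difference -2.50, adjusted p = 0.0431). With an added value of 1 Itgb7 alone passed (adjusted p = 0.0411), with 0.0501 for Treml2, and with 64 Itgb7 did not (0.056). None of the 3 passed when the arrays of any 1 retinoid condition were left out.

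Other genes with a small p did not pass. Pttg1, the securin that holds sister chromatids together, had 1739, 939 and 1144 with LPS and 3368, 3935 and 4675 without in BALB/c. In BL6 it had 7198, 6132 and 7260.4 with LPS, against 3083, 3198 and 4128 without (difference -2.47, adjusted p = 0.0558). Nts, the peptide neurotensin, had 1047, 332 and 496 with LPS in BALB/c and 64.7, 111 and 93.5 with LPS in BL6, with every array without LPS at background (adjusted p = 0.256). The interferon-stimulated genes had a median change of 1.60 in BALB/c and 2.77 in BL6, and the mitosis genes -3.36 in BALB/c and -2.54 in BL6. No single member of either list passed the test of the strain difference.

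**Figure D5:**
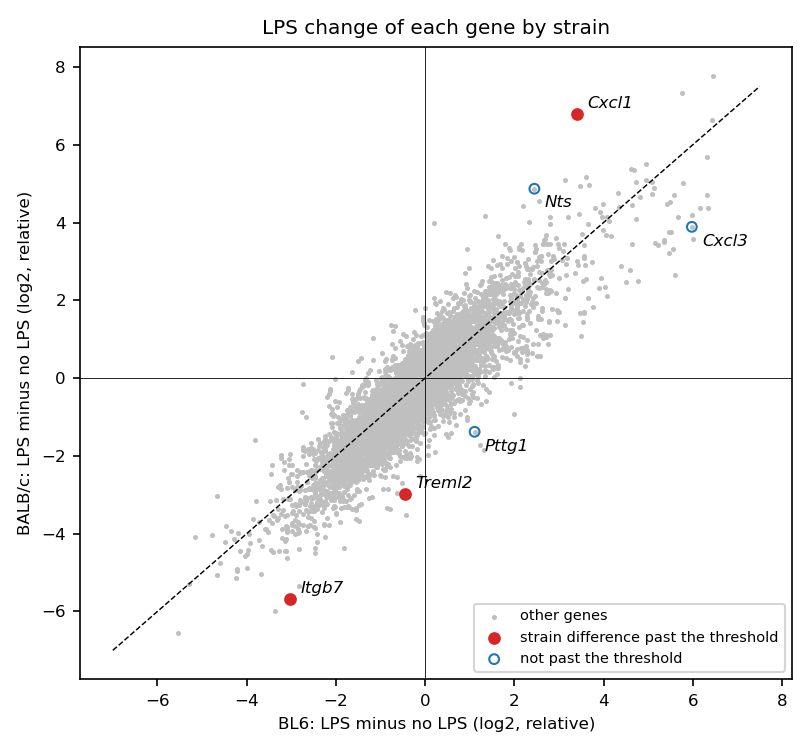
LPS change of each gene in BALB/c (vertical) against BL6 (horizontal), log2(signal + 16) relative to the median gene of that strain, for genes with a BALB/c group mean above background, with the dashed line at equal change. The 3 genes with a called strain difference are in red, Cxcl1 at 6.79 in BALB/c and 3.41 in BL6, Itgb7 at -5.69 and -3.02, and Treml2 at -2.98 and -0.46.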

How the data were processed

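Total RNA was hybridised to single-colour Affymetrix arrays, 1 for each of the 12 cultures. The authors deposited 1 linear intensity for each probe set, made with MAS5 per the submitters' processing notes, with the version and target signal not given in the sources used here. The 6 BALB/c arrays held values from 0.0239 to 17012.3. The number of arrays limits the precision.

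Of 45101 probe sets 64 were controls and 45037 were tested. Of these, 34945 were annotated to 1 gene, 932 to several and 9160 to none, and 34741 matched the reference gene table. The 18193 genes were each represented by the probe set of highest mean over the 6 BALB/c arrays. Signals were analysed as log2(signal + 16), which understates changes of dim genes, and folds were computed from the relative log2 change. Genes past the filter were above the median of their array on at least 2 of the 6 arrays. The BALB/c response was fitted with limma 3.58.1 in R 4.3.3 (retinoid condition as a block, then LPS, eBayes with an intensity trend, 2 residual degrees of freedom). The strain difference was fitted on 12 arrays with separate retinoid and LPS terms for each strain. P-values were adjusted over all 45037 probe sets by Benjamini-Hochberg with a threshold of 0.05. The tests were made on changes at the deposited scaling, before the median change was taken off. Tables were made in Python 3.11.15 with pandas 2.3.3, and figures with matplotlib 3.10.9.

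Same-retinoid arrays with and without LPS deviated together, with correlations of 0.291 (control), 0.438 (RA) and 0.533 (Ro) across 11630 genes, whereas replicate numbers stand for the strains. The control and RA conditions were also alike, with 0.221 for control+LPS with RA and 0.146 for RA+LPS with control. Pairings of Ro with another condition ran from -0.268 to -0.477. Simulated data for the BALB/c fit of 45037 probe sets had changes in 67, 67 and 66 brighter genes, with no retinoid effect and no shift of the median. There, 44.8% of changes of 1, 97% of 2 and 100% of 3 on the log2 scale were recovered, with 15 false calls. In the data 12051 probe sets were called, so these rates need not hold there.

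The members, the 35 gene lists (694 entries, 621 measured) and the rule for named genes were chosen with earlier results of these data known. The rule took the 14 largest rises and falls that ran the same way in 3 pairs, up to 4 called members of each list in each direction, the smallest p-values of the strain difference, the 8 widest ranges between pairs and a set of 14 genes. H2-Ea, the genes of the label check, Csf2, Ccl5, Csf1, Nfkbia, Mki67, Cenpa and Ifit1 were named beside it, as were list totals. Promoters came from the RefSeq table, 1 for each gene, with printed genes being the largest called changes that hold the motif. Cyld also met that rule, but was called at the deposited scaling only, and its promoter is not printed. Alternatives were quantile normalization, scaling to 1 median, other added values, a filter on dim probe sets, no intensity trend, means of all probe sets, no retinoid block, the replicate block, and leaving out each pair.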

Additional observations from a re-analysis of the deposited data

Results flagged for a closer look

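For 3 genes the LPS change differed between the strains by the test of the difference itself, with limma's strain by LPS term adjusted over all probe sets. Cxcl1 had a difference of 3.41, BALB/c minus BL6, relative to the median difference of all genes (-0.19), or 2.61 with an added value of 1 (adjusted p = 0.187). Its 3 LPS arrays lay between 3503 and 7288 in BALB/c and between 192 and 265 in BL6. Itgb7 had a difference of -2.65, with 1555 to 2247 in BALB/c and 393 to 696 in BL6 without LPS. Treml2 had a difference of -2.50, and its change was -2.98 ± 0.20 in BALB/c and -0.46 ± 0.22 in BL6. For Cxcl1 and Itgb7 the adjusted p was 0.039 and for Treml2 0.0431.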

How the results depend on the processing

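The direction of the response held for most named genes. Of 183 called genes named by rule, 105 kept their call and direction under all alternatives, and 28 of the named genes lost the call under quantile normalization. The reversed values were those of Canx at 0.02 and Pdia3 at 0.09 with arrays scaled to 1 median, Pdia3 at 0.02 with the filter on dim probe sets, and Dnajb1 at -0.08 and Irf4 at 0.73 as means of all probe sets. The count of genes higher (831) was 1667 under quantile normalization, 1715 with arrays scaled to 1 median and 551 with no retinoid block. It ran from 329 to 1087 when 1 retinoid pair was left out. The count of genes lower (4880) was 2044 under quantile normalization and 1598 with arrays scaled to 1 median, and ran from 2065 to 5299 when 1 pair was left out. A fit with 1 pair left out has fewer residual degrees of freedom. In the fit on all 12 arrays with the replicate block, 916 genes were higher and 5347 lower. With this balanced design that fit gives the same LPS changes as the main fit, so no sign could change. Of the named genes 4 lost their call. The fits with no retinoid block or no intensity trend also leave the changes as they are, so only calls could differ there. The count of strain differences (3 by limma, with 1676 genes at an unadjusted p under 0.05) was 1 with arrays scaled to 1 median, 1 with an added value of 1, 6 with the filter, and 8 where the strains shared the retinoid terms. It was 0 in each case when the arrays of 1 retinoid condition were left out, when 1404 (control), 803 (RA) and 1716 (Ro) genes had an unadjusted p under 0.05. The causes were not tested. Signals below background limit the size of changes, since they depend on the added value.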

Other observations

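Probe sets of 1 gene could go opposite ways. Of 3483 called genes with several probe sets, 50 had another probe set called in the opposite direction. Irf4, a transcription factor of dendritic cells, was represented by a probe set with 403, 202 and 1573 in control+LPS, RA+LPS and Ro+LPS and 1492, 761 and 2315 in control, RA and Ro (-1.13 ± 0.29, limma, adjusted p = 0.0135). Its other probe set had 622, 665 and 356 with LPS, against 104, 66.8 and 104 without, and rose by 2.65 ± 0.29 (adjusted p = 0.00273). Dnajb1, a co-chaperone of Hsp70, had 1309, 1264 and 1120 with LPS and 668, 862 and 842 without on the chosen probe set (0.92 ± 0.18, adjusted p = 0.044), and 309, 212 and 601 with LPS and 727, 934 and 996 without on the other (-1.04 ± 0.27, adjusted p = 0.0147). For Ighm 2 of 11 probe sets fell, and the others were not called.

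Genes of cell survival and death were not described above. Of 18 measured, 5 rose and 4 were lower at the deposited scaling only. The 4 lower are a share below the 26.8% of all genes, and the 5 higher stand against 4.57%. Casp4, the caspase that senses LPS inside the cell, had 2811, 2662 and 1248 with LPS, against 316, 353 and 259 without LPS, a rise of 8.01-fold (3.0 ± 0.22, adjusted p = 0.000808). Cflar, an inhibitor of caspase activation at death receptors, had 3001, 2826 and 2183 with LPS and 501, 414 and 568 without (2.68 ± 0.21, adjusted p = 0.000974). Bnip3, a mitochondrial protein induced by low oxygen, rose 5.27-fold. The 5 became 3 without the control pair or the RA pair, and the 4 lower became 1 without the control pair and 0 without the RA pair (limma, 5 lower at an unadjusted p under 0.05).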
